A study of Mus musculus with 6 samples.

Results

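The 10 genes of the guidance systems followed here were measured in sorted cells of the neonatal mouse limb skeleton: the semaphorins Sema3f, Sema3g, Sema6a and Sema7a, the plexins Plxnd1 and Plxna2, the ligands Slit2 and Slit3, the Robo-family receptor gene Robo4 and the netrin receptor gene Unc5b. They are 10 of 18193 genes measured, and all 10 were found under a single gene symbol in the platform's annotation. Each gene is represented by its probe set of highest mean value across the 6 arrays, and the gene's other probe sets are given beside it. The 10 genes have 21 probe sets in all, and 4 genes have a single one.

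The RNA came from fore and hind limbs of mice at postnatal day 3, with the limbs of a litter pooled. The tissue was digested with collagenase and the cells were sorted by flow cytometry. By their titles both populations were negative for CD45, found on all leukocytes, and for Ter119, found on erythroid cells. One population, the Tie2-negative, also lacked Itgav (the integrin chain alpha V) and Tie2, which is the product of Tek and binds angiopoietins. The other, the Tie2-positive, carried Tie2 and was low for Itgav. Each had 3 samples, each on its own single-colour Affymetrix 430-2.0 array. The dashes in the sample titles were taken to mean negative. The genotype is labelled wild type, while the tissue protocol speaks of GFP-labelled mice, and which applies was not settled. No source used here says that the 3 samples of a population were separate litters. The p-values therefore cover the spread among these samples only, and it may be technical.

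Semaphorins are secreted or membrane-bound ligands whose main receptors are the plexins, often together with a neuropilin as co-receptor. Plexins act on small GTPases and integrins and thereby on the cytoskeleton and on adhesion. Slits are secreted ligands of the Robo receptors, and netrins bind Dcc and the Unc5 receptors. These systems were first studied in growing axons and also steer vessel sprouts: plexin D1 and Robo4 are known receptors of endothelial cells, and Unc5b marks arterial and sprouting endothelium.

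The start regions of 4 of these genes are shown. Plxnd1 and Sema3g were called higher in the Tie2-positive population (limma adjusted p under 0.05). Robo4 had a change of 2.77 that was not called, and Slit3 differed hardly at all. Sema7a, with a change of 1.95 that was not called either, is not shown. Each sequence is the 250 bases before the gene's start, 5′ to 3′ in the gene's direction, from RefSeq on build GRCm38.p6. Capitals mark the GC box, GGGCGG on either strand. The windows lie at chr6:115995006-115995255 (minus strand) for Plxnd1, chr14:31217623-31217872 (plus strand) for Sema3g, chr9:37401722-37401971 (plus strand) for Robo4 and chr11:35121206-35121455 (plus strand) for Slit3.
Plxnd1: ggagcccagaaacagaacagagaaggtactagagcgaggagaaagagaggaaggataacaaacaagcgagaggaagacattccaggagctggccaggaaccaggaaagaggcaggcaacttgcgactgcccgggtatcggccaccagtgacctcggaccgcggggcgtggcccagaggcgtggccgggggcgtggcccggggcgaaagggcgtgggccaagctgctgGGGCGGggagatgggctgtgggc
Sema3g: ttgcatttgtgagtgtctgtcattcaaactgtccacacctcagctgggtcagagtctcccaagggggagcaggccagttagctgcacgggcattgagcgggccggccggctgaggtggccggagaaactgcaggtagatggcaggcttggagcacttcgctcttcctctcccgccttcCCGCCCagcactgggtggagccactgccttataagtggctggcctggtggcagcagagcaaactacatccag
Robo4: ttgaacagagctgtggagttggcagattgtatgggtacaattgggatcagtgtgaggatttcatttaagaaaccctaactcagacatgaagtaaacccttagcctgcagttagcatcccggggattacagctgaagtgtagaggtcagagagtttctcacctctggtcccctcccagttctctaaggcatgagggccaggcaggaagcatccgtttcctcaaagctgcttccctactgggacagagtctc
Slit3: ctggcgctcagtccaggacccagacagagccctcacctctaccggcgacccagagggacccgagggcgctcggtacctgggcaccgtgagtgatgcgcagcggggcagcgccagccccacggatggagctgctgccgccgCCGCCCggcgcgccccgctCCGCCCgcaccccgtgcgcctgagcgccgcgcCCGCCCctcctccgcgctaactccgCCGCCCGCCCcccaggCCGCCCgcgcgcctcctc
Windows were matched for 8 of the 10 genes. The letters GGGCGG occurred on either strand in 7 of those 8, the exception being Robo4, and in 32.7% of 32851 such windows of mouse genes. The Slit3 window held 6 matches, of which 2 overlap each other, and the Plxnd1 and Sema3g windows held 1 each. The Robo4 window had a GC content of 49.6%, below the median of all windows (52.4%), while those of Sema3g (60.4%), Plxnd1 (64.8%) and Slit3 (78.8%) lay above it. Further motifs were searched on both strands and had no match in the 8 windows. A form of the site of ETS factors, CCGGAAG, is held by 6.91% of all such windows. The site of GATA factors, searched as the letters AGATAA, is held by 9.99% of them. The Sox motif, taken as AACAAT, is found in 9.42%, and that of AP-1, taken as TGANTCA, in 6.75%. A match describes the letters of a window and not a bound site.

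Of the 10 genes, 2 rose in the Tie2-positive population, Plxnd1 and Sema3g, and 0 fell. The threshold was a limma adjusted p under 0.05, which 7.39% of all 18193 genes passed, with 4.86% higher and 2.53% lower. At an unadjusted p under 0.05, 7 of the 10 were higher and 0 lower, against 13.0% and 15.6% of all genes. The 3 Tie2-positive values lay above the 3 Tie2-negative values in 7 of the 10 genes and below them in 1, Sema6a. Over all genes these shares were 15.2% and 23.9%. The median log2 change of the 10 genes was 1.23, beside -0.11 over all genes. These contrasts are not independent support, because the 10 genes were chosen with earlier results of these data known. Every change is the Tie2-positive minus the Tie2-negative mean of log2 values, from quantile normalized values, and each population has n = 3. The table carries no detection calls, so whether low values lay above background was not analysed, and values of different probe sets cannot be set against each other as levels.

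**Figure D1:**
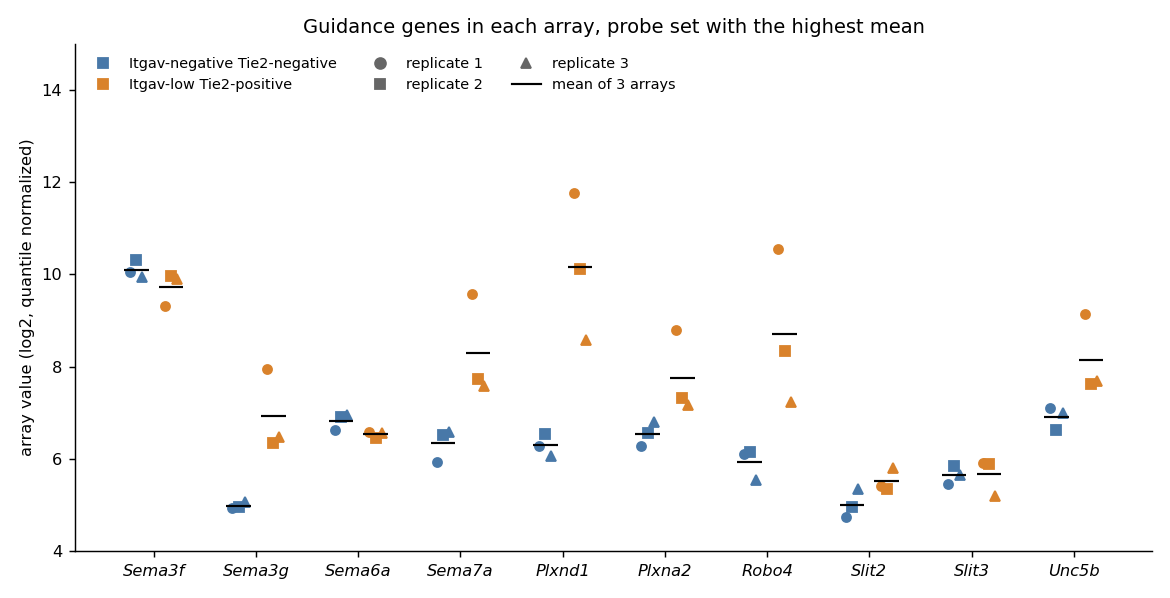
Array values (log2, quantile normalized) of the 10 guidance genes in the 3 Tie2-negative (blue) and 3 Tie2-positive (orange) arrays, with marker shape for the replicate and a bar at each mean. Plxnd1 and Sema3g passed the test, Tie2-positive replicate 1 is the highest Tie2-positive value in 8 of the 10 genes, and Sema3f and Slit3 overlap between the populations.

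Both populations were checked against marker genes. Of 11 endothelial markers, the gate gene Tek among them, 9 rose in the Tie2-positive population, and their median value was between 5.43 and 5.85 in the Tie2-negative arrays and 11.93, 10.38 and 9.27 in Tie2-positive replicates 1, 2 and 3. On the log2 scale of summed values the endothelial list ran from 9.98 to 10.59 in the Tie2-negative and from 12.66 to 15.27 in the Tie2-positive arrays. The neutrophil list (10 genes, 0 called by limma and 0 at an unadjusted p under 0.05) ran from 9.75 to 12.32 and from 9.28 to 16.75, and the erythroid list (8 genes, 4 lower) from 14.18 to 15.52 and from 9.81 to 12.27. The early B-cell list (10 genes, 6 lower) ran from 11.66 to 14.00 and from 9.54 to 9.80, although cells with CD45 were gated out. Of 7 megakaryocyte genes 1 rose, with summed values from 9.42 to 9.51 and from 10.13 to 13.27. Limma called 0 of 7 neural and Schwann-cell, 0 of 11 mesenchymal and skeletal, 0 of 8 mural and 0 of 7 muscle markers, with 1, 1, 3 and 0 of them at an unadjusted p under 0.05 (the neural one with a negative difference, the others positive). Of 6 macrophage markers 1 rose, Mrc1 (4.89), and the rest changed by -0.14 (C1qa) to 0.84 (Cd68) without a call. Of 6 lymphatic markers 2 rose, Lyve1 (2.51) and Flt4 (3.69). The rest changed by -2.01 (Reln) to 2.39 (Mmrn1) without a call, with 0.01 for Prox1. In sorted samples of this kind, fewer cells of a type and less RNA per cell cannot be told apart. RNA length was read from the array's Actb and Gapdh controls, as the log2 value at the 3′ end minus that at the 5′ end. It was 1.82 to 2.00 in the Tie2-negative and 1.87, 1.55 and 1.44 in Tie2-positive replicates 1, 2 and 3. The part of these differences in the results on guidance genes was not tested.

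Sema3g, a secreted semaphorin known from arterial endothelium, was higher in every Tie2-positive array. Its values were 4.93, 4.95 and 5.05 in Tie2-negative replicates 1, 2 and 3 and 7.95, 6.34 and 6.47 in Tie2-positive replicates 1, 2 and 3. The Tie2-negative arrays lay within a narrow band, and the lowest Tie2-positive array stood 1.29 above the highest of them. The mean of Sema3g over the 6 arrays was at the 38.8th percentile of all genes. Whether its Tie2-negative values lay above background was not analysed. Sema3g rose by 1.94 ± 0.42 (SE), a 3.84-fold difference (limma adjusted p = 0.0418). It has a single probe set. The call was lost in limma without Tie2-positive replicate 2 (2.23, adjusted p = 0.0601). It was also lost without Tie2-negative replicate 1, 2 or 3 (1.92, 1.93 and 1.98, with limma adjusted p = 0.142, 0.134 and 0.109). Without Tie2-negative replicate 1 or 2 limma called 0 of all genes. The call held in limma without Tie2-positive replicate 1 (1.43, adjusted p = 0.00271) and without Tie2-positive replicate 3 (2.17, adjusted p = 0.0478).

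Sema7a, a membrane-anchored semaphorin that acts through plexin C1 and beta-1 integrin, had values of 5.94, 6.52 and 6.57 in the Tie2-negative and 9.58, 7.72 and 7.58 in the Tie2-positive arrays. The populations did not overlap, and replicate 1 stood 1.85 above replicate 2. The change of 1.95 ± 0.54 (SE) was as large as that of Sema3g but did not pass (limma adjusted p = 0.0773). It passed without Tie2-positive replicate 1, with a smaller change (1.31, limma adjusted p = 0.0187). A second probe set of Sema7a had a change of -0.13 ± 0.22 (SE), with values from 5.05 to 5.25 and from 4.64 to 5.50, so the populations overlapped there. For its receptor gene Plxnc1 the values were 7.33, 8.23 and 8.75 in the Tie2-negative and 5.99, 10.78 and 10.22 in the Tie2-positive arrays. They were high in the 2 Tie2-positive arrays with high neutrophil transcripts and low in replicate 1. The megakaryocyte marker median was also lowest in replicate 1. Relative to the Tie2-negative mean it stood at 0.50, 3.62 and 2.34 in Tie2-positive replicates 1, 2 and 3. Which cells gave the Plxnc1 values was not tested. Plxnc1 differed by 0.89 ± 1.22 (SE), short of a call (limma adjusted p = 0.648).

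Sema3f, a secreted semaphorin that binds neuropilin 2, gave a direction that depended on the probe set. The one with the highest mean, whose identifier ends in x_at, had values of 10.04, 10.32 and 9.93 in the Tie2-negative and 9.32, 9.97 and 9.90 in the Tie2-positive arrays. These overlapped, with a change of -0.37 ± 0.25 (SE; limma adjusted p = 0.353). Probe sets of that kind can match several transcripts. A second one, with the ending a_at, read 4.87, 5.17 and 5.57 against 8.17, 6.77 and 5.86, all 3 Tie2-positive values above the others, with a change of 1.73 ± 0.54 (SE) that did not pass over all probe sets (adjusted p = 0.112). The other changed by 0.40 ± 0.37 (SE) and overlapped. Over the mean of its probe sets the change of Sema3f was 0.59 (adjusted p = 0.226).

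Sema6a, a transmembrane semaphorin that binds plexin A2, showed the same kind of split. In the probe set used, the values were 6.62, 6.91 and 6.95 in the Tie2-negative and 6.58, 6.46 and 6.56 in the Tie2-positive arrays. The Tie2-positive arrays were lower by a gap of only 0.034, and the change of -0.29 ± 0.18 (SE) did not pass (limma adjusted p = 0.304). Another probe set read 4.88, 4.96 and 5.46 against 8.55, 6.78 and 6.52. There the Tie2-positive arrays were all higher, by 2.18 ± 0.52 (SE), just short of the threshold over all 45037 probe sets (adjusted p = 0.0597). The remaining probe set changed by 0.08 ± 0.19 (SE). Over the mean of its probe sets the change of Sema6a was 0.66 (adjusted p = 0.142), so neither direction of this gene passed a test.

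**Figure D2:**
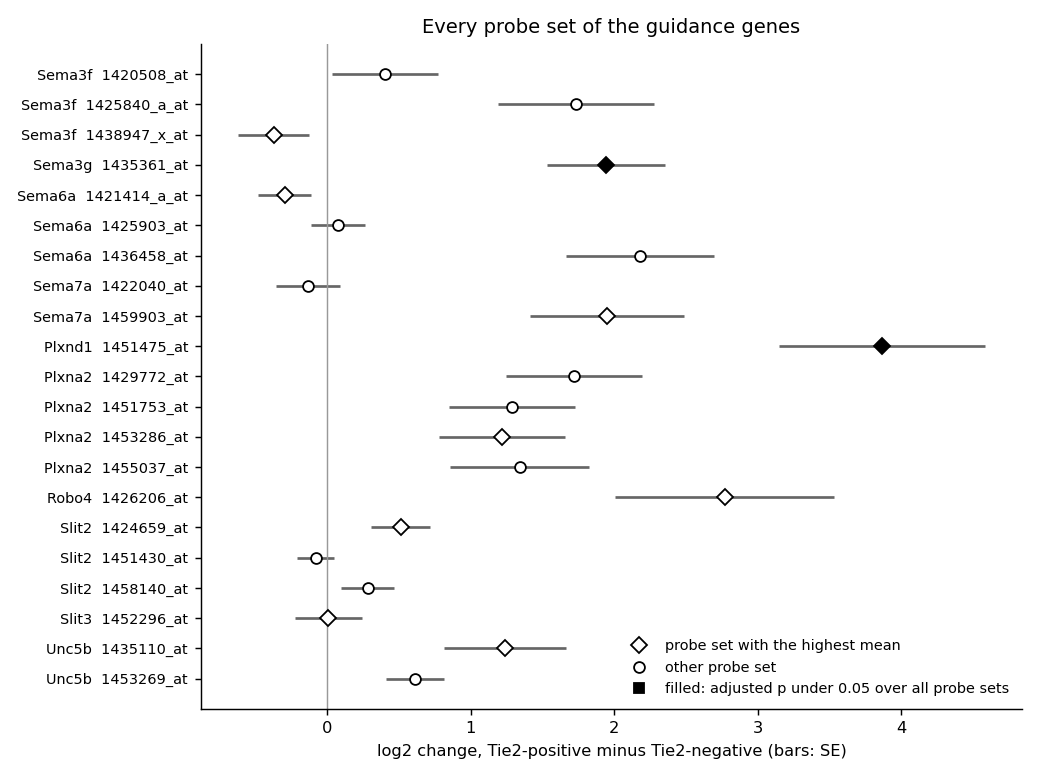
Log2 change (Tie2-positive minus Tie2-negative, bars for SE) of each of the 21 probe sets, with diamonds for the probe set used and filled symbols for an adjusted p under 0.05 over all probe sets. Sema3f and Sema6a each have a probe set below 0 and one above 1.7, while all 4 probe sets of Plxna2 lie between 1.22 and 1.72.

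Plxnd1, a plexin of endothelial cells and the receptor of semaphorin 3E, had the largest change of the 10 genes. Its values were 6.27, 6.54 and 6.07 in the Tie2-negative and 11.77, 10.12 and 8.59 in the Tie2-positive arrays. The gap between the populations was 2.05, and the Tie2-positive arrays themselves were spread over 3.19. Plxnd1 rose by 3.87 ± 0.74 (SE), or 14.6-fold (limma adjusted p = 0.0308), in its only probe set. The call was lost in limma without Tie2-positive replicate 2 (3.89, adjusted p = 0.0830). It was also lost without Tie2-negative replicate 1, 2 or 3 (3.85, 3.99 and 3.75, with limma adjusted p = 0.120, 0.108 and 0.0966). Without Tie2-negative replicate 1 or 2 limma called 0 of all genes. The call of Plxnd1 held in limma without Tie2-positive replicate 1 (3.06, adjusted p = 0.00628) and without Tie2-positive replicate 3 (4.65, adjusted p = 0.0101). Its ligand gene Sema3e changed by -0.01 ± 0.26 (SE; adjusted p = 0.989), with population means of 4.72 and 4.71, and was named after its values were seen.

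Plxna2, a receptor of semaphorin 6A and, with neuropilins, of secreted semaphorins, was read by 4 probe sets that moved alike. The one used gave 6.27, 6.55 and 6.80 in the Tie2-negative and 8.80, 7.33 and 7.16 in the Tie2-positive arrays. In each of the 4 the Tie2-positive arrays were all above the Tie2-negative ones, which held for 13.1% of all probe sets. The change was 1.22 ± 0.45 (SE) in the probe set used and up to 1.72 in the others, and none passed (limma adjusted p = 0.137 over all genes and from 0.0839 to 0.148 over all probe sets). Nrp1, the neuropilin that semaphorins and vascular endothelial growth factor share, read 4.51, 4.44 and 5.10 against 12.63, 11.17 and 10.47. It rose by 6.74 ± 0.54 (SE; limma adjusted p = 0.0103).

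Robo4, the Robo receptor of endothelial cells, read 6.11, 6.16 and 5.55 in the Tie2-negative and 10.55, 8.34 and 7.23 in the Tie2-positive arrays. All Tie2-positive values were higher, and Robo4 had the widest spread among them of the 10 genes, 3.33 between replicates 1 and 3. The change of 2.77 ± 0.78 (SE; 6.81-fold) did not pass (limma adjusted p = 0.0795). It passed in limma without Tie2-positive replicate 1 (1.84, adjusted p = 0.0205) and without Tie2-positive replicate 3 (3.51, adjusted p = 0.0336).

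The 2 Slit ligands differed little between the populations. Slit2 read 4.72, 4.95 and 5.33 in the Tie2-negative and 5.40, 5.35 and 5.79 in the Tie2-positive arrays, separated by a gap of 0.020. Its change was 0.51 ± 0.20 (SE; limma adjusted p = 0.159), and its other 2 probe sets changed by -0.08 ± 0.13 and 0.28 ± 0.18 (SE) with overlapping populations. Slit3 read 5.46, 5.84 and 5.65 against 5.90, 5.88 and 5.19, with Tie2-positive replicate 3 the lowest of all 6. Its change of 0.01 ± 0.23 (SE; adjusted p = 0.979) had no settled sign and was -0.03 in the values as deposited.

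Unc5b, a netrin receptor that also binds Robo4, read 7.10, 6.63 and 7.00 in the Tie2-negative and 9.13, 7.62 and 7.70 in the Tie2-positive arrays. The populations did not overlap, and replicate 1 again stood apart from the other Tie2-positive arrays. The change of 1.24 ± 0.43 (SE) did not pass (limma adjusted p = 0.122). A second probe set went the same way with a smaller change, 0.61 ± 0.20 (SE), also without overlap.

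The Tie2-positive arrays were not alike, in some of the guidance genes as in the marker lists. Relative to the Tie2-negative mean, the endothelial marker median was higher by 6.31, 4.77 and 3.65 in Tie2-positive replicates 1, 2 and 3. Plxnd1 stood at 5.48, 3.82 and 2.29 and Robo4 at 4.62, 2.40 and 1.29 on the same scale. In 8 of the 10 genes replicate 1 was the highest Tie2-positive array, which held for 42.1% of all genes. For Sema6a that lead over replicate 3 was 0.020. In 5 of the 10 (Sema7a, Plxnd1, Plxna2, Robo4 and Slit3) the order of the 3 arrays was that of the endothelial median, beside 25.3% of all genes. For Slit3 this order rested on a lead of replicate 1 over replicate 2 of only 0.018. The mesenchymal and skeletal median had this order too, at 0.57, 0.09 and -0.15. The neutrophil median went the other way, at -1.59, 4.32 and 6.02. Slit2, with 0.40, 0.35 and 0.79, and Sema3f, with -0.78, -0.13 and -0.20, did not have their highest value in replicate 1.

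**Figure D3:**
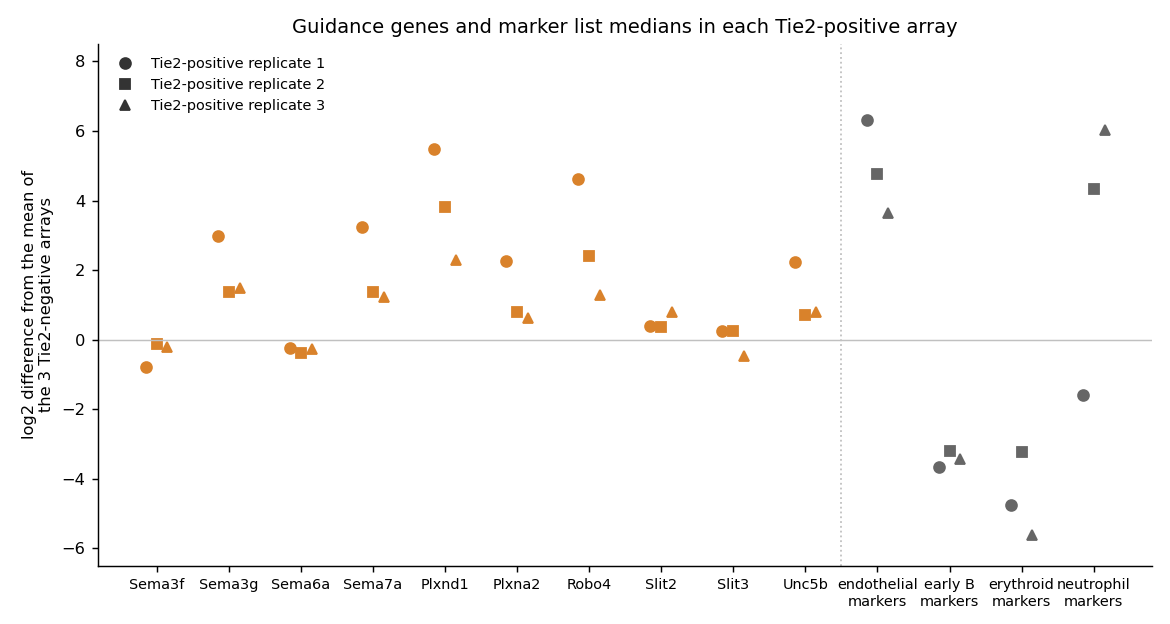
Log2 difference of each Tie2-positive array from the mean of the 3 Tie2-negative arrays, for the 10 guidance genes (orange) and the medians of 4 marker lists (grey), with marker shape for the replicate. Replicate 1 is highest for the endothelial median (6.31) and lowest for the neutrophil median (-1.59), and it is the highest for Plxnd1 (5.48) and Robo4 (4.62).

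The other genes of these systems were read from 5 lists with 88 genes, all measured. Of these 16 rose (18.2%) and 3 fell (3.41%), with a median change of 0.23. Over all genes 4.86% rose and 2.53% fell, with a median change of -0.11, and each list below is read beside these shares. The share of the 88 genes that fell was near that of all genes. The counts depended on single arrays, as did those over all genes (884 higher and 461 lower with all 6 arrays). Limma called 4 higher without Tie2-negative replicate 3 (251 of all genes) and 6 without Tie2-positive replicate 2 (375 of all genes). Without Tie2-negative replicate 1 or 2 it called 0 higher and 0 lower, as for all genes (4012 and 3980 at an unadjusted p under 0.05). It called 0 lower without Tie2-positive replicate 2 or 3, beside 129 and 225 of all genes. Lower calls were 1 without Tie2-negative replicate 3 and 2 without Tie2-positive replicate 1, beside 127 and 652 of all genes.

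Among 16 other semaphorin genes 2 rose and 1 fell, with a median change of 0.03. Sema6d, a transmembrane semaphorin, read 6.04, 5.06 and 6.20 in the Tie2-negative and 10.92, 9.53 and 7.87 in the Tie2-positive arrays and rose by 3.67 ± 0.75 (SE; limma adjusted p = 0.0369). Its 3 other probe sets changed by 0.08 to 0.55, with overlapping populations. Sema3a, a secreted repellent of axons and vessels, rose by 1.29 ± 0.18 (SE; adjusted p = 0.0146), and its other probe sets, which were not called, had changes of 0.19 and 0.87. Sema4b, a transmembrane semaphorin, had values of 9.13, 8.72 and 8.09 in the Tie2-negative and 6.94, 7.44 and 7.07 in the Tie2-positive arrays and a change of -1.49 ± 0.32 (SE; adjusted p = 0.0400), beside -0.34 in another probe set, where the populations overlapped. Sema4d, a semaphorin of lymphocytes and other blood cells, read 8.57, 9.24 and 9.38 against 6.23, 8.98 and 9.11. Only Tie2-positive replicate 1 stood apart among its 6 arrays, and the change of -0.95 ± 0.77 (SE) did not pass. Sema6c, a transmembrane semaphorin, read 8.78, 8.96 and 8.97 against 8.16, 8.30 and 8.10. All its Tie2-positive values were below the others, and the change of -0.72 ± 0.19 (SE) did not pass (limma adjusted p = 0.0715).

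Of 12 other plexin and co-receptor genes, Nrp1 rose and Cd72 fell, and the median change was -0.08. Cd72, a B-cell surface protein that binds semaphorin 4D, changed by -2.01 ± 0.42 (SE, limma adjusted p = 0.0382). Of the 10 early B-cell markers 6 fell as well, and which cells gave the Cd72 values was not tested. Itgb1, the beta-1 integrin chain through which semaphorin 7A acts, changed by 0.10 ± 0.31 (SE). Nrp2 read 6.75, 6.92 and 6.97 against 9.33, 8.15 and 7.02 and did not pass (1.28 ± 0.54 SE, limma adjusted p = 0.175). Its other probe sets changed by 0.82 to 2.95 without a call. Nrp2 was named after its values were seen.

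Of 7 other genes of the Slit and Robo system, 2 rose and 0 fell, with 2 lower at an unadjusted limma p under 0.05. Robo1, a Slit receptor, read 3.48, 3.32 and 4.04 in the Tie2-negative and 7.48, 6.67 and 6.12 in the Tie2-positive arrays and rose by 3.14 ± 0.36 (SE; limma adjusted p = 0.0105). Its 2 other probe sets changed by -0.05 ± 0.13 and -0.21 ± 0.16 (SE). Dag1, the gene of dystroglycan, which binds Slits, rose by 1.75 ± 0.28 (SE; adjusted p = 0.0207), while its 3 other probe sets changed by 0.22 to 1.08 without a call. Sdc1, a heparan sulfate carrier, changed by -0.52 ± 0.18 (SE; adjusted p = 0.119) in the probe set used and by 1.68 in another.

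Of 18 genes of netrins and their receptors and partners, 2 rose and 1 fell, with a median change of -0.19. The risers were Flrt2 (3.01 ± 0.56 SE, limma adjusted p = 0.0286) and Flrt3 (1.72 ± 0.39 SE, limma adjusted p = 0.0461), which encode membrane ligands of the Unc5 receptors. Over all probe sets neither probe set of Flrt3 passed (1.72 and 1.97, limma adjusted p = 0.05003 and 0.0511). Flrt2 read 5.74, 5.95 and 6.06 in the Tie2-negative and 10.22, 8.66 and 7.90 in the Tie2-positive arrays. Unc5cl, named for its likeness to Unc5c, changed by -1.69 ± 0.37 (SE; adjusted p = 0.0446). Limma called 0 of the 6 netrin genes themselves, and 1 of them, Ntng2, was at an unadjusted p under 0.05 (-0.56 ± 0.18, SE; adjusted p = 0.110). Ntn1 changed by 0.33 ± 0.18 (SE; adjusted p = 0.272). Both were named after their values were seen.

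Of 35 intracellular partners of these receptors, 9 rose and 0 fell, with 3 lower at an unadjusted limma p under 0.05 and a median change of 0.69. Dpysl3, a collapsin response mediator, rose by 4.58 ± 0.71 (SE; limma adjusted p = 0.0190). Enah, an actin regulator, rose by 3.76 ± 0.63 (SE) and Rras, a small GTPase downstream of plexins, by 3.24 ± 0.60 (SE). Of the 5 other probe sets of Enah 1 was called higher (1.54) and the rest changed by -0.21 to 0.52, the lowest with all Tie2-positive values below the others. The exchange factors Dock1 and Trio rose by 2.87 ± 0.45 and 2.02 ± 0.37 (SE), and the kinase gene Fes by 2.22 ± 0.34 (SE). The 5 other probe sets of Trio changed by -0.33 to 1.33 and the other one of Dock1 by 0.25, none of them called. Pxn, the gene of the adhesion protein paxillin, and the GTPase gene Rac1 rose by 1.71 ± 0.33 and 1.05 ± 0.17 (SE), with no call in their other probe sets (-0.18 and 1.21 for Pxn, 0.35 and 0.47 for Rac1). Farp1, named after its value was seen, rose by 1.82 ± 0.39 (SE), while its other probe set changed by -0.14 without a call.

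**Figure D4:**
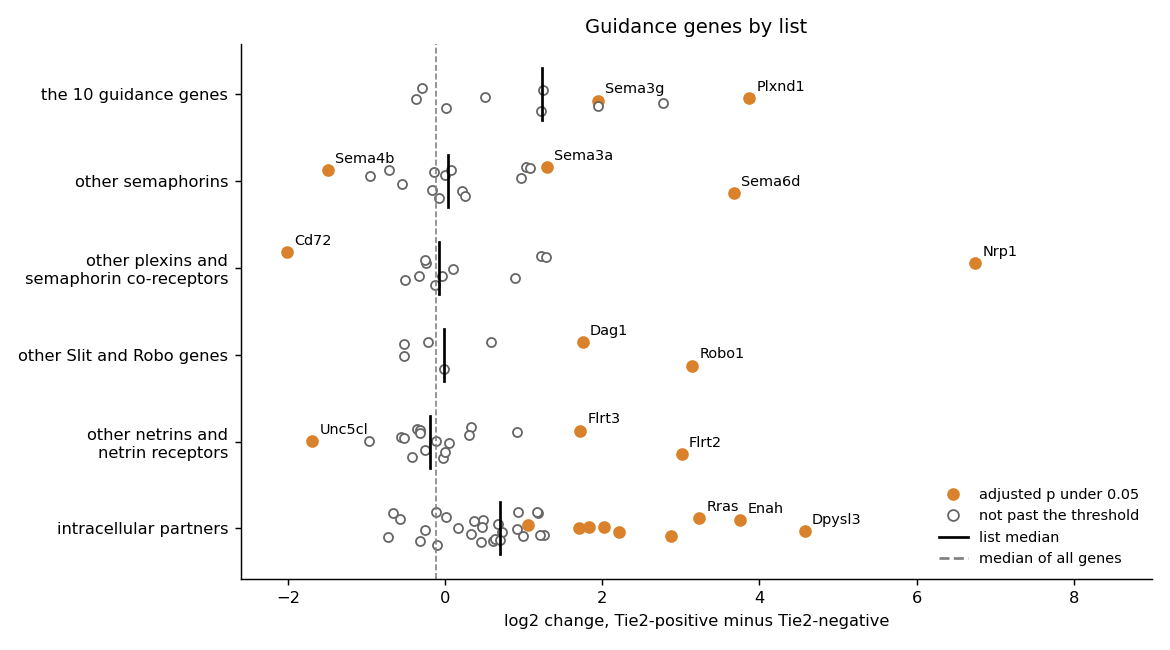
Log2 change (Tie2-positive minus Tie2-negative) of the 10 guidance genes and of the 88 genes in 5 wider lists, orange where the adjusted p was under 0.05, with list medians as bars and the median of all genes (-0.11) as a dashed line. The intracellular partners have a median of 0.69 and the other lists medians between -0.19 and 0.03, beside 1.23 for the 10 genes.

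For each of the 10 genes the nearest of all genes was found by Euclidean distance between the 6 values, each gene centred on its own mean. The nearest to Plxnd1 was She (distance 0.450), to Robo4 Asah2 (0.425), to Sema3g Raph1 (0.177), to Sema7a Ddah1 (0.293), to Plxna2 Mfap2 (0.284) and to Unc5b Arhgef26 (0.177). For the 4 genes with small changes it was Pfn4 (Sema3f, 0.149), Rdh16f2 (Sema6a, 0.0594), Zfp11 (Slit2, 0.0495) and Smap2 (Slit3, 0.179). The 6 arrays share 2 populations, so for genes with a large change the measure mostly reads the step between them. For Slit3 and Sema3f it mostly reads the spread within the populations. Slit3 had a change of 0.01 and standard deviations of 0.19 (Tie2-negative) and 0.41 (Tie2-positive). For Sema3f these were -0.37, 0.20 and 0.36.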

How the data were processed

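The authors deposited a table with 1 value for each probe set on each of 6 arrays. The values run from 2.56 to 14.78, which was taken as a log2 scale. The authors' summarisation and normalization of these log2 values are not given in the sources used here. Per the labels' protocols, RNA was amplified in 2 rounds and arrays were scanned with GCOS 1.1.1. Of 45101 probe sets 64 controls were left out of the tests, and 34945 carried 1 gene symbol in the platform's annotation, 34741 of them matched by gene ID in RefSeq (GRCm38.p6).

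The 75th percentiles differed by 0.27 between arrays, past the limit of 0.1, so values were quantile normalized. They ran from 7.26 to 7.33 in the Tie2-negative and from 7.45 to 7.53 in the Tie2-positive arrays, a difference the normalization removed. Limma 3.58.1 in R 4.3.3 (lmFit, eBayes with a mean trend, two-sided, Benjamini-Hochberg over 18193 genes, threshold 0.05) was fitted to all 6 arrays without covariates and tested on simulated data. No 2 arrays were identical (0 pairs).

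The 10 genes and all lists were chosen with earlier results of these data known. Of each wider list, up to 6 called genes with the largest change and the 2 with the highest mean were named. The alternatives were a replicate block, deposited or median-centred values, a filter at the 40th percentile, other choices of probe set, no trend, robust estimation, array weights and leaving out arrays. Precision is limited by the small number of arrays.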

Additional observations from a re-analysis of the deposited data

How the results depend on the processing

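Each alternative was run for the counts of calls and for the 10 genes. With 3 arrays per population the number of arrays and the unknown background of low signals limit these results. The replicate numbers were not taken as pairs. Deviations of same-numbered arrays correlated at 0.14, 0.0050 and 0.19, and those of differently numbered arrays at -0.16 to 0.055. So few values cannot settle whether same-numbered arrays were pairs. With the number as a block limma called 0 of all genes (smallest adjusted p 0.0521, 5080 at an unadjusted p under 0.05). It therefore called 0 of the 10 genes and 0 and 0 of the wider lists. With the block Plxnd1 had an SE of 0.61 and a limma adjusted p of 0.0606, and Sema3g 0.38 and 0.0771. Over all probe sets 2246 were called. With array weights limma called 4639 genes, 2177 higher and 2462 lower (46.9% of them higher, against 65.7%). Among them were 5 of the 10 genes, all higher, and 22 wider genes higher and 9 lower. The filter at the 40th percentile left 7 of the 10 genes, with 1 called higher, because Sema3g, at the 38.8th percentile, was not tested. With Tie2-positive replicates 2 and 3 left out, which keeps the array highest in 8 of the 10 genes and assumes that it varies like the other population, limma called 3637 genes, 6 of the 10 genes higher, and 28 wider genes higher and 7 lower. With 1 array left out the counts ran from 0 to 2148 for all genes, from 0 to 4 for the 10 genes higher, from 0 to 17 for wider genes higher and from 0 to 2 for those lower. Sema3f turned to 0.59 over the mean of its probe sets and to 0.40 without probe sets ending in x_at or s_at, and Sema6a turned to 0.66 over the mean. Slit3 turned to -0.033 in the deposited values and ran from -0.11 to 0.25 with 1 array left out. None of the 10 genes was called lower in any of these settings (0), where limma gave at most 1 lower at an unadjusted p under 0.05. Beyond how each alternative is built, the cause of these shifts was not tested.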

Other observations

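Neo1, the gene of neogenin, a receptor of netrins and of repulsive guidance molecules, was read in opposite directions by its 5 probe sets. The one with the highest mean, of the type x_at, had values of 7.74, 7.67 and 7.90 in the Tie2-negative and 6.83, 7.55 and 7.36 in the Tie2-positive arrays, a change of -0.52 ± 0.24 (SE) that did not pass (limma adjusted p = 0.208). Another, of the type s_at, read 3.58, 3.35 and 4.94 against 8.80, 7.04 and 7.73 and was higher by 3.90 ± 0.55 (SE; limma adjusted p = 0.0156 over all probe sets). The populations did not overlap in another 2, with higher Tie2-positive values that did not pass (0.89 ± 0.33 and 0.46 ± 0.16, SE), and the last changed by 0.09 with overlap. Probe sets of these types can match several transcripts, and which of these readings holds for Neo1 was not tested.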
